A study of Homo sapiens with 12 samples.

Results

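Expression of 10 genes of the matrix metalloproteinase (MMP) system was examined across the 4 groups of an RNA sequencing experiment in MCF10A, an immortalized but non-tumorigenic line of human mammary epithelial cells. The genes were taken by name as rows of a count table of 23459 genes: the MMPs MMP1, MMP2, MMP3, MMP9, MMP10, MMP13 and MMP14, and the tissue inhibitors of metalloproteinases TIMP1, TIMP2 and TIMP3. All 12 libraries came from MCF10A cells that carry a doxycycline-inducible allele of YAP5SA, a YAP mutant that the Hippo kinases cannot inactivate. The cells were infected with an empty vector or with a vector that overexpresses JUN, a subunit of the transcription factor AP-1, and received doxycycline (Dox, 100 ng/ml) or the solvent ethanol (EtOH). The groups, of 3 libraries each, are called vector EtOH and vector Dox (empty vector) and JUN EtOH and JUN Dox (JUN vector). All of them grew in medium with horse serum, insulin, hydrocortisone, cholera toxin and EGF. Only the induced groups received doxycycline, so YAP5SA and the drug itself cannot be told apart. The promoter of the JUN vector used in this experiment is not given in the sources used here.

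MMPs are zinc-dependent proteases that cut proteins of the extracellular matrix and of the cell surface. Most are secreted as inactive proenzymes, whereas MMP14 is anchored in the plasma membrane, where it activates proMMP2 with the help of TIMP2. TIMPs bind the active site of MMPs and block it. The genes of the interstitial collagenases and stromelysins, MMP1 and MMP3 among them, are textbook AP-1 targets in fibroblasts and tumour cells.

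Libraries held 18594867 to 28993487 counts, and 3 counts, the limit that a count of 0 allows, corresponded to 0.107 to 0.1505 CPM, the read count scaled to library size. With the JUN vector, JUN was at 1064 to 1399 CPM (EtOH) and 1146 to 1325 CPM (Dox), against 35.5 to 55.0 and 187 to 194 CPM with the empty vector, as the labels have it. YAP1, whose counts may include the transgene, was at 179 ± 10.5 CPM (SD, n = 3) in vector EtOH and 237 ± 31.5 in vector Dox, and at 234 ± 20.9 in JUN EtOH and 280 ± 79.3 in JUN Dox. Its difference on induction was not called in vector or in JUN cells (edgeR adjusted p = 0.0819 and 0.308). All 8 markers of basal mammary epithelium were present, with a summed level of 4910 to 10940 CPM, lower in vector Dox (4910 to 6119) than in vector EtOH (8843 to 9488), and all 4 general epithelial markers (CDH1, EPCAM, KRT8 and KRT18) were present. The summed level of these 4 was lower with JUN, at 850 to 1072 CPM in JUN EtOH against 1525 to 1721 in vector EtOH and at 576 to 950 in JUN Dox against 1785 to 1791 in vector Dox. KRT8 and KRT18 overlap on opposite strands by 1084 bases, 525 of them in exons, so they can share reads and are not separate observations. With JUN 3 of the 4 markers were called lower in uninduced and all 4 in induced cells (median log2 changes of -0.85 and -1.13). The 8 basal markers did not follow this fall. With JUN 3 were called higher and 1 lower in uninduced cells, and 4 higher and 1 lower in induced cells (medians of 0.30 and 0.53). Of all genes tested, 20.1% were called higher and 18.9% lower in uninduced cells, and 18.4% and 17.2% in induced cells. The part of either marker list in the changes with JUN given below was not tested. Of the defining markers of other cells, the leukocyte genes PTPRC and CD3E, the endothelial gene CDH5 and the fibroblast collagens COL1A2 and COL3A1 had at most 3 counts in any library. Other genes of these lists were present, with group means of 354 to 455 CPM for CSF1R, 18.2 to 84.8 for CD68, 2.72 to 26.9 for CD14 and 92.2 to 132 for PDGFRA, and 3 of 6 leukocyte, 4 of 8 fibroblast and 0 of 4 endothelial markers had a mean of at least 1 CPM over the 12 libraries.

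The genes lie on several chromosomes (GRCh37, the assembly of hg19, to which the reads were aligned). MMP1, MMP3, MMP10 and MMP13 sit within a cluster of MMP genes on the long arm of chromosome 11. They lie 660 to 845 kb from the start of YAP1, with BIRC3, BIRC2 and TMEM123 between YAP1 and the cluster. MMP14 spans chr14:23305769-23318250 on the plus strand, MMP2 chr16:55423612-55540603 on the plus strand and MMP9 chr20:44637547-44645200 on the plus strand. TIMP1 spans chrX:47441807-47446188 on the plus strand, TIMP2 chr17:76849059-76921469 on the minus strand and TIMP3 chr22:33197691-33259028 on the plus strand. The 250 bases upstream of the transcription start were in the RefSeq table (GRCh38.p14) for 4 of the 10 genes, MMP10, MMP14, TIMP1 and TIMP3. They are printed for MMP14, which was the most abundant MMP, for TIMP1, which was the most abundant TIMP, and for MMP10, which had no read, each in the direction of transcription. The windows are chr14:22836335-22836584 (plus strand) for MMP14, chrX:47582186-47582435 (plus strand) for TIMP1 and chr11:102780629-102780878 (minus strand) for MMP10. Capitals mark a TATA box (TATAAA), an ETS core (AGGAAG) and an AP-1 variant (TGAGTAA).

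MMP14: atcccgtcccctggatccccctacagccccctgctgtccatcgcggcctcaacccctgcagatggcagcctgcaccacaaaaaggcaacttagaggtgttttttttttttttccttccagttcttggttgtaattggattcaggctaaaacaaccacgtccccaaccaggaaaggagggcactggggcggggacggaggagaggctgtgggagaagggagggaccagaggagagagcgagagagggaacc
TIMP1: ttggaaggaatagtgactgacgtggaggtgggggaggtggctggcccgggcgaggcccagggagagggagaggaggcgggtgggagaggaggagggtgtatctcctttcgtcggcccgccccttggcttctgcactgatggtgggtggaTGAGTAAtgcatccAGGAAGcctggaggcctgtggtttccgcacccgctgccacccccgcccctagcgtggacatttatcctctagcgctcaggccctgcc
MMP10: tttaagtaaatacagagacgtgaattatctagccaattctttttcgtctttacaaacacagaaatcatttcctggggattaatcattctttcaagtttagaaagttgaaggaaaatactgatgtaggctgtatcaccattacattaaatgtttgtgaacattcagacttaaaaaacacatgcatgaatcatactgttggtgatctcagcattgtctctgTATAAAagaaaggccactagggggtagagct

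The AP-1 motif (TGACTCA, or TGAGTCA on the other strand) was in none of the 4 windows, and neither was the TEAD motif (GGAATG or CATTCC). Of all 35116 promoter windows of this length, 4.2% held the AP-1 motif and 11.9% the TEAD motif. The ETS core (AGGAAG or CTTCCT) occurred in 1 of the 4, at positions -87 to -82 of TIMP1, against 28.7% of all promoters. The TATA box, searched on the strand of the gene, occurred in 1, at positions -31 to -26 of MMP10, against 6.8% of all promoters. The AP-1 variant TGAGTAA (or TTACTCA), searched only after the sequences had been read, was at positions -101 to -95 of TIMP1 and in 2.21% of all promoters. Other variants of the AP-1 motif were not searched. The window of MMP10, for example, holds TGAATCA, which is not marked, so the windows cannot be ranked by AP-1-like letters. Such matches describe letters in these windows, not binding.

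The 10 genes fell into 2 sets by their level. MMP2, MMP14, TIMP1, TIMP2 and TIMP3 passed the filter on low counts and were tested, whereas MMP1, MMP3, MMP9, MMP10 and MMP13 did not pass and are described by their counts. A filter of this kind keeps a gene that is high in only some groups, as MMP2 was in both JUN groups, so the counts of changed genes below refer to 5 of the 10.

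**Figure D1:**
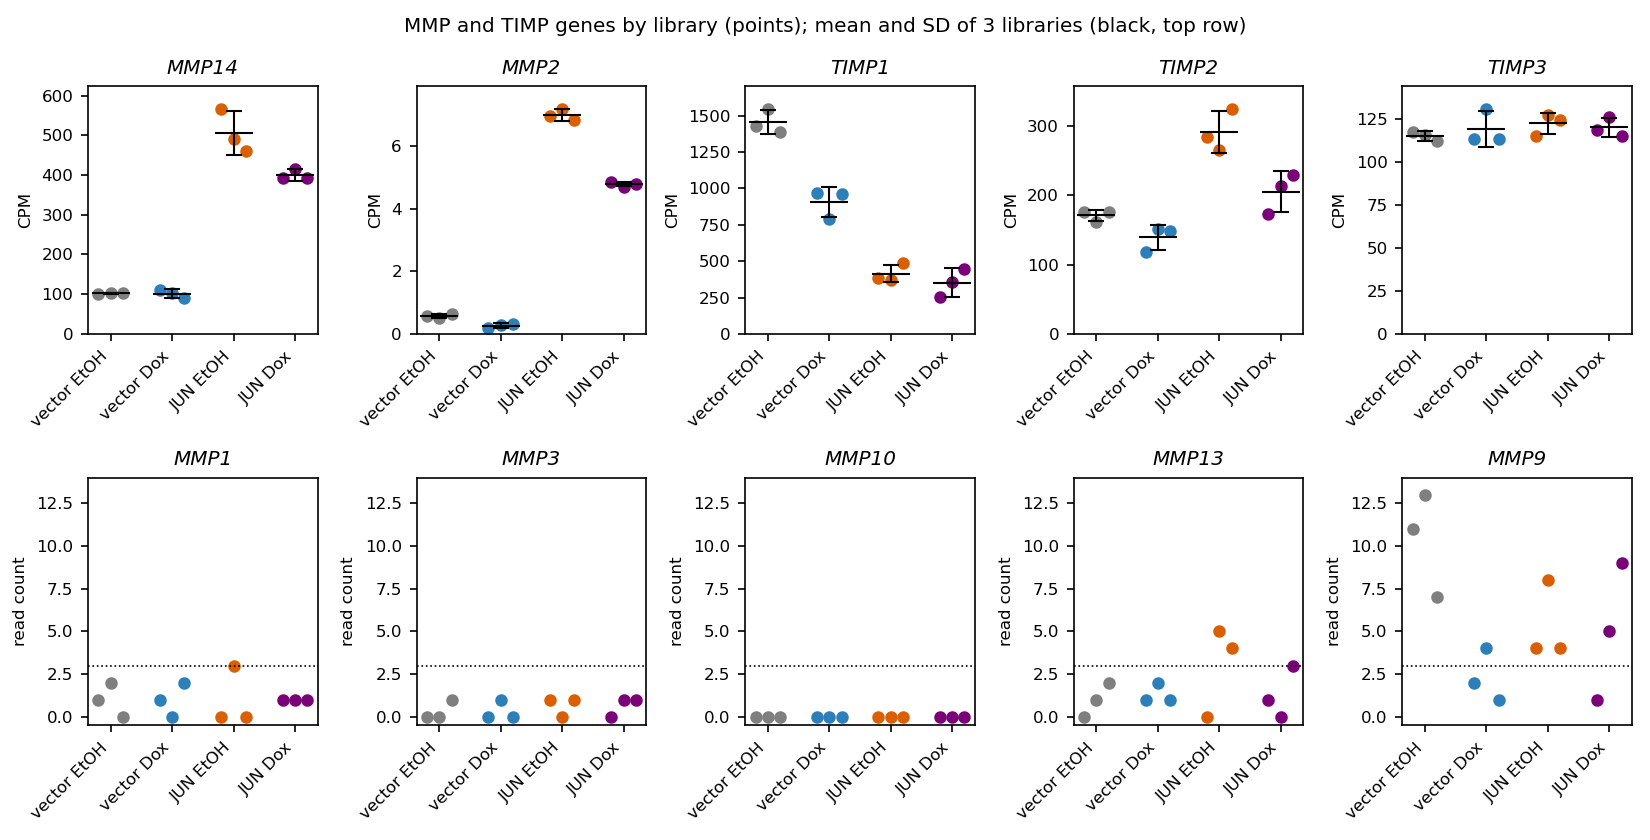
Levels of the 10 genes in each of the 12 libraries. The top row shows CPM for the 5 tested genes (points are libraries, black bars the mean ± SD of 3 libraries), and the bottom row shows read counts for the 5 genes that did not pass the filter, with a dotted line at 3 counts. MMP14 and MMP2 are higher and TIMP1 is lower in every JUN library than in every vector library, TIMP3 stays between 112 and 131 CPM, and MMP10 is at 0 throughout.

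The collagenases, stromelysins and gelatinase MMP9 were at or near the detection limit in all groups, with or without JUN. MMP10, a stromelysin, had 0 counts among the 277424996 counts of all libraries, which allows a level of up to 0.0108 CPM over the pooled libraries. MMP1, the interstitial collagenase, had 12 counts in all, with 3 in each of the 4 groups and at most 3 in any library. MMP3, another stromelysin, had 6 counts in all and never more than 1 in a library. JUN overexpression was thus not accompanied by a detectable level of any of these 3 genes at this depth.

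MMP13, a collagenase of cartilage and bone, had 20 counts in all. With the empty vector they were 0, 1 and 2 without and 1, 2 and 1 with induction, and with JUN 0, 5 and 4 without and 1, 0 and 3 with induction. The groups overlapped, and only 2 JUN EtOH libraries were above 3 counts. Without the filter, the difference between JUN EtOH and vector EtOH was 1.48 ± 1.16 (SE) on the log2 scale (edgeR adjusted p = 0.388).

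MMP9, the larger gelatinase, stood slightly above the limit in uninduced vector cells. Its counts were 11, 13 and 7 in vector EtOH and 2, 4 and 1 in vector Dox, so these groups did not overlap (0.314 to 0.649 against 0.0413 to 0.180 CPM). In the JUN groups the counts were 4, 8 and 4 without and 1, 5 and 9 with induction, and these overlapped. In the fit without a filter, in which 20.4% of 20316 genes were called on induction in vector cells, 10.4% lower, MMP9 fell by 2.12 ± 0.71 on the log2 scale (edgeR adjusted p = 0.0353). DESeq2 gave an adjusted p of 0.0391 for this difference. The other pairwise comparisons of MMP9 had adjusted p-values of 0.304 to 0.927 without the filter. MMP9 shares 7.96% of its 75-base stretches with the antisense gene SLC12A5-AS1, so part of these few reads could belong to the latter.

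MMP14, the membrane-anchored activator of MMP2, was the most abundant MMP and rose about 5-fold with JUN. Its level was 100.7, 101.9 and 102.1 CPM in vector EtOH and 567, 490 and 459 CPM in JUN EtOH, so the lowest JUN library was far above the highest vector library. The change was 2.31 ± 0.11 (SE) on the log2 scale, a 4.98-fold increase with a 95% interval of 4.21 to 5.87 (edgeR adjusted p = 2.43e-09). In induced cells MMP14 was at 110.8, 103.8 and 89.6 CPM with the empty vector and at 391, 416 and 392 CPM with JUN, again without overlap, and it rose 3.94-fold (adjusted p = 9.09e-09).

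YAP5SA induction moved MMP14 far less. In vector cells the induced and uninduced libraries overlapped, and the difference was -0.0027 ± 0.11 on the log2 scale with a 95% interval of -0.23 to 0.23 (edgeR adjusted p = 0.990). In JUN cells MMP14 fell by 0.34 ± 0.11, from 505 ± 55.8 to 400 ± 14.2 CPM (SD, n = 3; edgeR adjusted p = 0.0343), and the 3 induced libraries all lay below the 3 uninduced ones. This call did not hold with a correction for GC content (adjusted p = 0.0893), without a filter on low counts (0.0505) or without 1 of 7 libraries: vector EtOH 1 or 3, JUN EtOH 1 or 2, or any JUN Dox library. The adjusted p was then between 0.0507 and 0.176, the latter without JUN EtOH 1, where the fall was 0.25.

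MMP2, the smaller gelatinase and the main substrate of MMP14 among the MMPs, was barely expressed in vector cells and rose with JUN. Its counts were 15, 10 and 14 in vector EtOH and 158, 171 and 146 in JUN EtOH. These correspond to 0.570, 0.499 and 0.628 CPM against 6.95, 7.21 and 6.85 CPM. The groups lay far apart, with a 12.2-fold increase (95% interval 9.10 to 16.4; edgeR adjusted p = 8.80e-09). In induced cells MMP2 was at 0.174, 0.270 and 0.331 CPM with the empty vector and at 4.87, 4.71 and 4.80 CPM with JUN, an 18.1-fold increase (95% interval 12.9 to 25.5; edgeR adjusted p = 7.96e-09).

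MMP2 fell on induction in both backgrounds. In vector cells, where the induced libraries held only 4, 6 and 8 counts, it fell by 1.11 ± 0.30 on the log2 scale (edgeR adjusted p = 0.0194). This call was lost without vector Dox 1 (adjusted p = 0.0903), without vector EtOH 3 (0.0658) and in a fit of only the vector libraries (0.0712). In JUN cells it fell by 0.55 ± 0.16, from 7.0 ± 0.182 to 4.79 ± 0.0776 CPM (edgeR adjusted p = 0.0206). That call was lost without any 1 of JUN EtOH 1, 2 and 3 or JUN Dox 2 and 3, with adjusted p-values of 0.0526 to 0.0773 and a fall of 0.53 to 0.56.

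MMP2 is also known as a product of stromal cells, and markers of fibroblasts were therefore examined beside it. Of 8 fibroblast markers, 4 had a mean of at least 1 CPM, and their summed level was 111 to 125 CPM in vector EtOH and 112 to 126 CPM in JUN EtOH. Most of this sum was PDGFRA, at 106 ± 6.84 and 92.2 ± 4.17 CPM. COL1A2 and COL3A1 had at most 3 counts in every library. The proteoglycan genes LUM and DCN were higher in JUN EtOH, at 6.09 ± 0.820 against 0.732 ± 0.446 CPM for LUM and 17.7 ± 5.53 against 5.97 ± 1.93 CPM for DCN (edgeR adjusted p = 1.69e-06 and 0.00103). The other 3 of the 5 tested markers, COL1A1, PDGFRA and PDGFRB, were not called, with log2 differences of -0.0039, -0.21 and -0.62. Of all genes tested, 20.1% were called higher and 18.9% lower there. The median over the 5 markers was -0.0039 beside 0.00 over all genes. The part of LUM and DCN in the MMP2 result was not tested.

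TIMP1, a secreted inhibitor of most MMPs, was by far the most abundant of the 10 genes and fell with JUN. It was at 1433, 1550 and 1391 CPM in vector EtOH and at 387, 373 and 485 CPM in JUN EtOH, without overlap. The fall was 1.81 ± 0.18 on the log2 scale, or 3.51-fold (edgeR adjusted p = 2.93e-06). In induced cells TIMP1 was at 966, 787 and 965 CPM with the empty vector and at 251, 360 and 447 CPM with JUN. The fall was 1.36 ± 0.18 on the log2 scale, or 2.57-fold (adjusted p = 4.08e-05), and the JUN Dox libraries differed among themselves by more than those of any other group relative to their mean.

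TIMP1 also fell on induction in vector cells, by 0.69 ± 0.18 on the log2 scale or 1.61-fold (edgeR adjusted p = 0.00843), and the groups did not overlap. In JUN cells the induced and uninduced libraries overlapped, with a difference of -0.23 ± 0.18 and a 95% interval of -0.61 to 0.14 (adjusted p = 0.392). The difference between these changes was 0.45 ± 0.25 on the log2 scale and did not pass the test (edgeR adjusted p = 0.683), so the fall on induction was not shown to depend on JUN.

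TIMP2, which inhibits MMPs and also serves as the adaptor between MMP14 and proMMP2, rose with JUN. It was at 176, 162 and 176 CPM in vector EtOH and at 285, 265 and 326 CPM in JUN EtOH, a 1.71-fold increase without overlap (edgeR adjusted p = 0.000328). In induced cells it was at 118, 152 and 148 CPM with the empty vector and at 173, 214 and 230 CPM with JUN, a 1.48-fold increase (adjusted p = 0.00363). On induction in JUN cells TIMP2 fell by 0.51 ± 0.13 on the log2 scale (edgeR adjusted p = 0.0107), a call that was lost without JUN EtOH 3 (a fall of 0.42, adjusted p = 0.0537). In vector cells the difference on induction was -0.30 ± 0.13 and missed the threshold (adjusted p = 0.0950), although the groups did not overlap; it passed with upper-quartile scaling (0.0446) and without JUN Dox 1 (0.0391).

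TIMP3, the inhibitor that binds to the extracellular matrix, did not pass the test in any comparison. With the empty vector its level was 118, 116 and 112 CPM uninduced and 113, 131 and 113 CPM induced. With JUN it was 115, 127 and 125 CPM uninduced and 118, 126 and 115 CPM induced, and the groups compared overlapped. The differences in the pairwise comparisons lay between -0.028 and 0.090 on the log2 scale, and the widest bounds of their 95% intervals were -0.22 and 0.28 (edgeR adjusted p from 0.445 to 0.939).

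**Figure D2:**
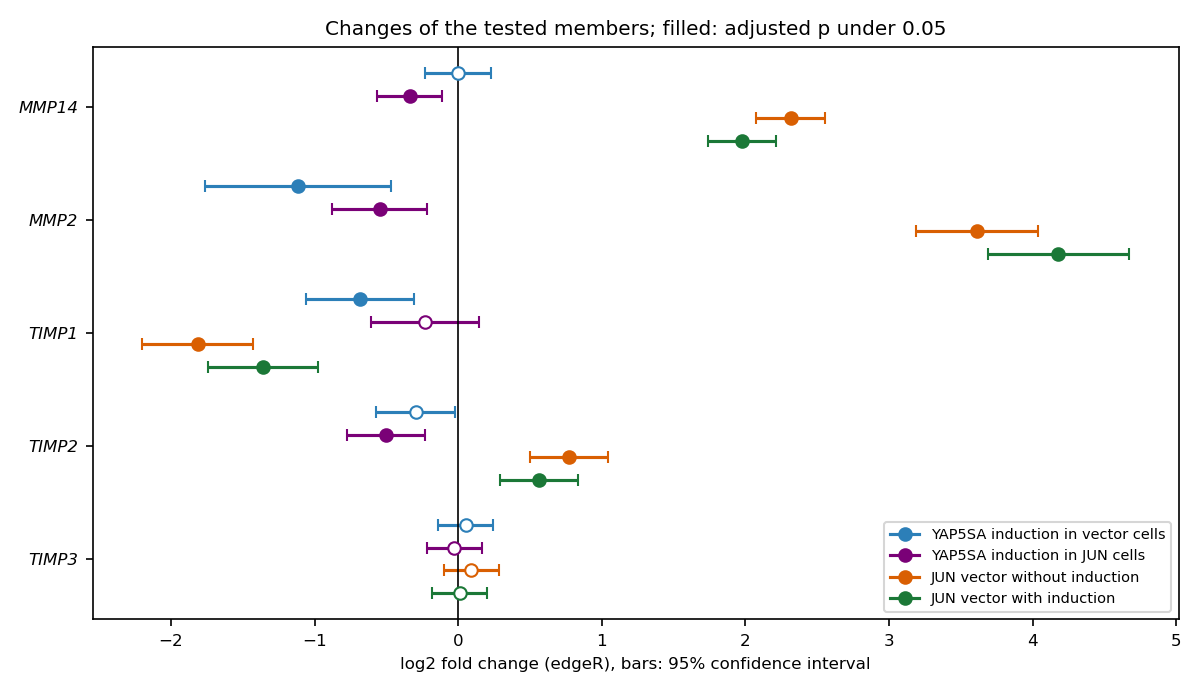
Log2 fold changes of the 5 tested genes in the 4 pairwise comparisons, from edgeR. Points are estimates, bars 95% intervals, and filled points have an adjusted p under 0.05. The JUN comparisons (orange and green) lie far to the right of 0 for MMP14 and MMP2 and to the left of 0 for TIMP1, the induction comparisons (blue and purple) lie at or left of 0 except for TIMP3, and all intervals of TIMP3 include 0.

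Counted over the list, 4 of the 5 tested genes were called with JUN in uninduced cells, 3 higher and 1 lower. Of all 14775 genes tested, 39.0% were called there, 20.1% higher and 18.9% lower. In induced cells the same 4 genes were called in the same directions, beside 35.6% of all genes (18.4% higher and 17.2% lower). On induction 2 were called in vector cells, both lower (30.1% of all genes were called, 14.4% lower), and 3 in JUN cells, all lower (21.4% of all genes, 10.3% lower). With 5 genes, these counts, with JUN or on induction, cannot be set apart from the background. The median log2 change of the 5 genes was 0.77 and 0.56 with JUN and -0.30 and -0.34 on induction, beside medians of 0.00 to 0.01 over all genes tested. The comparisons share groups, so their values are not independent of each other.

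Whether induction acted differently in JUN and vector cells was tested by an interaction term. None of the 5 genes passed (edgeR), where 1.12% of all genes did. For MMP14 the difference was -0.34 ± 0.15 on the log2 scale (edgeR adjusted p = 0.520), and DESeq2 called none of the 5 genes either.

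To compare levels between genes, CPM were divided by the merged exon length of each gene (RPKM). On this scale TIMP1 led the 10 genes in all groups, at 1008 ± 56.8 RPKM (SD, n = 3) in vector EtOH and 244 ± 68.1 in JUN Dox. In vector EtOH the next levels were TIMP2 at 27.6 ± 1.31, TIMP3 at 25.0 ± 0.629 and MMP14 at 21.97 ± 0.159. The order of these close levels depends on the length used. The longest transcript of TIMP2 has 3652 bases against 6209 of merged exons, and that of MMP14 3852 against 4623. TIMP3 has 4597 by both. In JUN EtOH MMP14, at 109 ± 12.1 RPKM, stood above TIMP2 at 47.0 ± 4.96 and TIMP3 at 26.6 ± 1.36, with no overlap between these genes. MMP2 reached 1.49 ± 0.0387 RPKM there, and the other 5 genes stayed under 0.2 RPKM in every group mean.

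The ratio of MMP14 to TIMP1 RPKM was therefore higher in JUN cells. With the empty vector it was 0.0220, 0.0206 and 0.0230 uninduced and 0.0359, 0.0413 and 0.0290 induced. With JUN it was 0.459, 0.411 and 0.296 uninduced and 0.488, 0.362 and 0.274 induced. Vector and JUN libraries did not overlap, nor did vector EtOH and vector Dox, whereas JUN EtOH and JUN Dox did. The ratio of MMP14 to TIMP2 on merged exon lengths was 0.798 ± 0.0416 in vector EtOH and 2.35 ± 0.407 in JUN EtOH. Its value depends on the length used and was not recomputed with the longest transcripts. These are ratios of mRNA levels per length, not of protein or of protease activity. How far TIMP1 inhibits MMP14 was not examined, so the first ratio does not measure the inhibition of MMP14.

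Summed over all MMP genes in the table, the level was 33.2 ± 0.349 RPKM in uninduced and 29.5 ± 2.0 in induced vector cells, and 122 ± 12 in uninduced and 94.8 ± 4.11 in induced JUN cells. MMP14 made up 66.2% ± 0.907 of this sum in vector EtOH and 89.7% ± 1.105 in JUN EtOH. The summed TIMP level was lower with JUN, and like the MMP sum it had lower means in the induced groups, with 1061 ± 55.8 and 675 ± 67.3 RPKM in uninduced and induced vector cells and 361 ± 47.6 and 303 ± 72.5 RPKM in uninduced and induced JUN cells. TIMP1 made up 95.03% ± 0.357 of it in vector EtOH and 79.5% ± 1.21 in JUN EtOH.

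**Figure D3:**
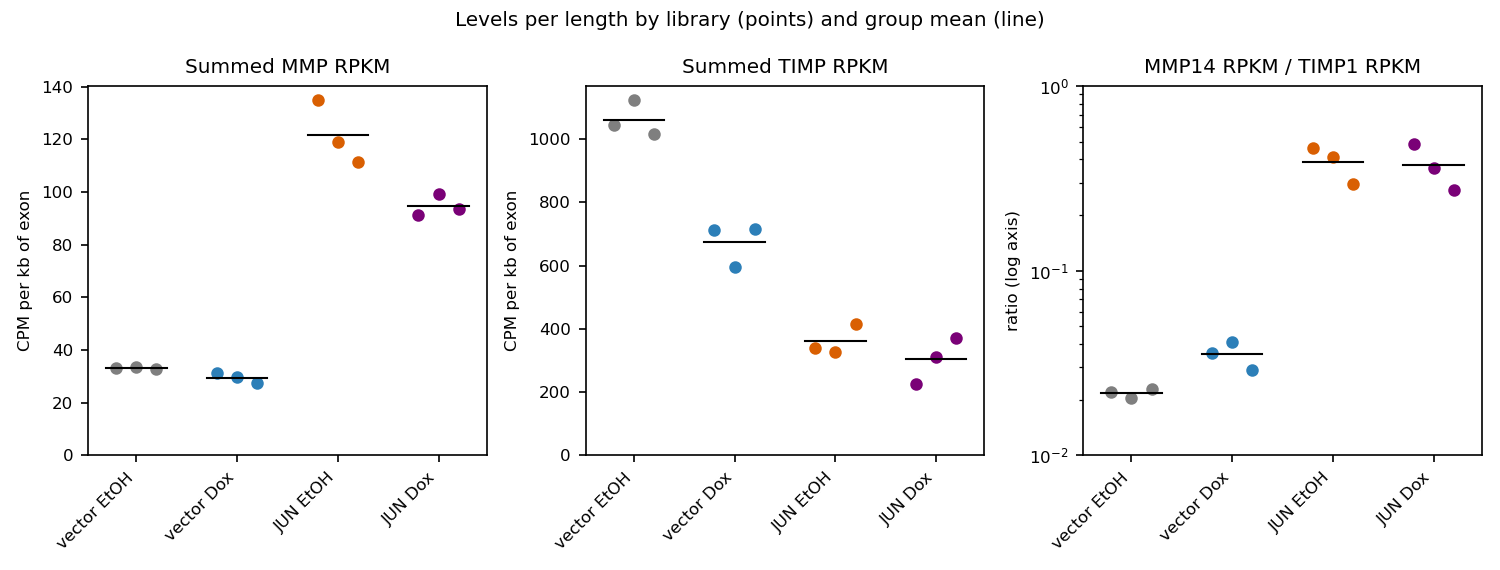
Levels per length in the 12 libraries: the sum over all MMP genes, the sum over all TIMP genes (both in CPM per kb of exon, axes from 0) and the ratio of MMP14 to TIMP1 (log axis). Points are libraries and lines group means. The MMP sum is higher and the TIMP sum lower in every JUN library than in every vector library, and the ratio lies at 0.0206 to 0.0413 in vector and 0.274 to 0.488 in JUN libraries.

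How reads were assigned bears on these values. SYN1, a neuronal gene that contains TIMP1 on the opposite strand without exon overlap, exceeded the count of TIMP1 by only 7 to 47 reads in each library, and SYN3 exceeded TIMP3 by 12 to 169. The counts thus behave as counts over whole gene spans without strand, so reads of SYN1 or SYN3 introns within the TIMP genes cannot be told apart from TIMP reads. WTAPP1, which contains MMP1 and MMP10 on the opposite strand, had 4611 reads, of which at most the 12 of MMP1 fell in the span of these 2 genes. MMP14, TIMP1, TIMP3 and MMP13 share no 75-base exon stretch with another gene's transcripts, MMP3 and MMP10 share 22 with each other, TIMP2 shares 6.91% of its stretches and MMP2 2.15%.

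The MMP cluster on chromosome 11 held reads at or near 0 between expressed neighbours. Its 9 MMP genes (MMP7, MMP20, MMP27, MMP8, MMP10, MMP1, MMP3, MMP12 and MMP13) had 77 counts together over all libraries, 4 of them had none, and the highest, MMP7, had 30. The 7 flanking genes had 209149 counts together, from 565 for CFAP300 to 63952 for YAP1. Of these 7, all of which were tested, 2 (BIRC3 and BIRC2) rose and 1 (DCUN1D5) fell with JUN in uninduced cells. This share is close to the 39.0% of all genes called there, 20.1% higher and 18.9% lower. BIRC3, an inhibitor of apoptosis that lies between YAP1 and the MMP genes, rose by 1.80 ± 0.16 on the log2 scale, from 115 ± 16.8 to 401 ± 44.3 CPM (edgeR adjusted p = 9.20e-07). The MMP genes of the cluster, with BIRC2 and TMEM123 between them and BIRC3, stayed near 0. On induction BIRC3 fell by 1.34 ± 0.16 in JUN cells (adjusted p = 3.15e-05). In vector cells it fell by 0.52 ± 0.16 (adjusted p = 0.0207), a call that was lost without vector EtOH 1 (0.106, a fall of 0.40) or vector Dox 1 (0.0617, a fall of 0.41). The median log2 change of the 7 genes with JUN was -0.06, beside 0.00 over all genes.

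**Figure D4:**
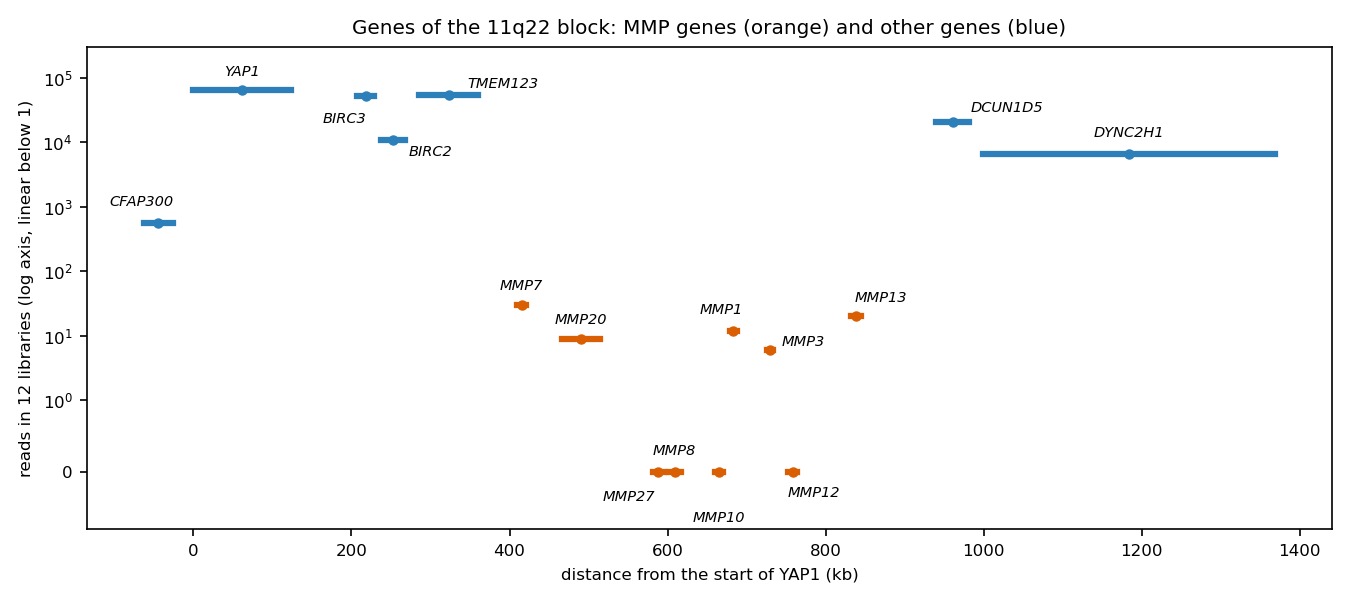
Reads summed over the 12 libraries for 16 genes of the chromosome 11 block, plotted against distance from the start of YAP1 in kb (bars span the genes; log axis, linear below 1). The 9 MMP genes (orange) lie at 0 to 30 reads and the 7 other genes (blue) at 565 to 63952.

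Of 18 other genes of the MMP and TIMP families, 7 passed the filter. With JUN in uninduced cells 2 of the 7 rose and 1 fell, MMP15, a share close to the 39.0% of all genes called there. MMP19, a secreted MMP, rose by 2.34 ± 0.19 on the log2 scale, from 1.64 ± 0.153 to 8.31 ± 0.910 CPM (edgeR adjusted p = 4.48e-07), and MMP16, a membrane-type MMP like MMP14, rose by 1.46 ± 0.27, from 1.11 ± 0.272 to 3.08 ± 0.673 CPM (adjusted p = 0.000816). In induced cells MMP19 and MMP16 rose as well, by 1.74 ± 0.20 and 1.09 ± 0.26 (adjusted p = 1.36e-05 and 0.00469), while MMP28 fell by 1.20 ± 0.34 and MMP15 by 0.52 ± 0.16 (adjusted p = 0.0131 and 0.0195), so that 2 rose and 2 fell beside 35.6% of all genes called. The call of MMP28 was lost without vector Dox 3 (-0.96, adjusted p = 0.0634). That of MMP15 was lost with the GC correction, alone or with the replicate block (0.0876 and 0.101), and without JUN Dox 1 or vector Dox 2 (0.0782 and 0.0647). The median log2 change of the 7 with JUN was -0.28 in uninduced and -0.52 in induced cells, beside 0.00 over all genes.

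On induction 2 of these 7 genes fell in vector cells and 3 in JUN cells, and none rose, beside 14.4% and 10.3% of all genes called lower. MMP28, an MMP of epithelia, fell by 1.28 ± 0.30 in vector cells (8.73 ± 1.37 to 3.57 ± 1.15 CPM, edgeR adjusted p = 0.00434) and by 1.75 ± 0.33 in JUN cells (adjusted p = 0.00160). MMP19 fell by 0.89 ± 0.17 in JUN cells (adjusted p = 0.00204). MMP15, another membrane-type MMP, was the remaining call in both, at -0.47 ± 0.15 and -0.47 ± 0.16, and was lower with JUN in uninduced cells at -0.52 ± 0.15. With the GC correction these 3 calls were lost (edgeR adjusted p = 0.104, 0.0650 and 0.173), and with the replicate block that in JUN cells was lost too (0.0585). Leaving out vector EtOH 1 or 3 or vector Dox 1 or 3 ended the call in vector cells (0.0724 to 0.147), leaving out any JUN EtOH library, JUN Dox 1 or 2, vector EtOH 3 or vector Dox 3 that in JUN cells (0.0607 to 0.175), and leaving out vector EtOH 1 or 3 or JUN EtOH 2 that with JUN (0.0552 to 0.0777). The median log2 change of the 7 was -0.39 (vector cells) and -0.47 (JUN cells), beside 0.01 and 0.00 over all genes. MMP24, which was tested but not called, shares its span and reads with MMP24OS.

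Genes that activate, inhibit, take up or dock MMPs were taken as a list of 26, of which 20 were tested. With JUN in uninduced cells 11 rose and 4 fell, with a median of 0.46, beside 20.1% and 18.9% of all genes and a median of 0.00. LCN2, whose product binds MMP9, rose by 4.01 ± 0.25 on the log2 scale, from 0.997 ± 0.266 to 16.1 ± 1.52 CPM (edgeR adjusted p = 2.93e-08). PLAU, the urokinase that generates plasmin, an activator of proMMPs, rose by 2.69 ± 0.20, from 17.3 ± 2.09 to 112 ± 21.7 CPM (adjusted p = 1.31e-07), with reads shared with the overlapping C10orf55. THBS1, a matrix glycoprotein that binds MMP2 and MMP9, fell by 1.99 ± 0.15, from 108 ± 21.4 to 27.3 ± 2.13 CPM (adjusted p = 2.35e-07), and the other genes that fell were BSG, PCSK6 and ST14.

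With JUN in induced cells 10 of the 20 regulators rose and 5 fell, beside 18.4% and 17.2% of all genes, with PLAT, the tissue plasminogen activator, at 2.41 ± 0.12 and THBS1 at -3.73 ± 0.16 on the log2 scale (edgeR adjusted p = 2.00e-09 and 7.40e-10). On induction 5 rose and 5 fell in vector cells, and 4 rose and 6 fell in JUN cells, beside 30.1% and 21.4% of all genes called in either direction. THBS1 rose by 3.63 ± 0.16 in vector cells, from 108 ± 21.4 to 1340 ± 194 CPM, and by 1.89 ± 0.15 in JUN cells (edgeR adjusted p = 9.81e-10 and 8.84e-07). LRP1, the endocytic receptor that clears MMPs and MMP-TIMP complexes, fell by 1.67 ± 0.21 in vector and 1.22 ± 0.19 in JUN cells (adjusted p = 2.58e-05 and 0.000316). Its span overlaps that of STAT6 on the opposite strand by 3657 bases, so part of the LRP1 reads could belong to STAT6. CLDN1, a tight junction protein that can recruit MMPs, rose by 1.73 ± 0.13 and 1.14 ± 0.13 (adjusted p = 1.57e-07 and 2.13e-05).

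Matrix proteins cut by MMPs were taken as a list of 26, of which 20 were tested. With JUN in uninduced cells 13 rose and 1 (COL7A1) fell, beside 20.1% and 18.9% of all genes, with a median of 0.73 beside 0.00 over all genes. In induced cells 13 rose and none fell, beside 18.4% and 17.2% of all genes, with a median of 0.78. FN1, fibronectin, rose by 2.97 ± 0.22 on the log2 scale, from 45.2 ± 10.9 to 354 ± 58.5 CPM (edgeR adjusted p = 1.45e-07). TNC, tenascin C, rose by 1.61 ± 0.18, from 17.4 ± 3.13 to 53.4 ± 8.09 CPM (adjusted p = 1.06e-05). VCAN, the proteoglycan versican, rose by 1.55 ± 0.22, from 159 ± 30.3 to 467 ± 49.1 CPM (adjusted p = 9.42e-05). LAMA3 and LAMB3, laminin chains of the epithelial basement membrane, rose by 0.85 ± 0.17 and 1.30 ± 0.12 (adjusted p = 0.00121 and 1.24e-06).

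On induction 1 of the 20 substrate genes (COL4A1) rose and 10 fell in vector cells, and none rose and 4 (COL1A1, TNC, LAMA5 and COL4A5) fell in JUN cells, with medians of -0.50 and -0.39. Of all genes 30.1% were called in vector cells, 14.4% lower, and 21.4% in JUN cells, 10.3% lower. The 4 of 20 in JUN cells were thus close to the share called in either direction and above the share called lower. Whether the list departs from all genes was not tested. The call of LAMA5 in JUN cells (-0.60 ± 0.17, edgeR adjusted p = 0.0218) was lost without JUN EtOH 1 or 2 or JUN Dox 1 or 3 (0.0531 to 0.0678) and with the block and GC correction (0.0637). LAMA5 overlaps ADRM1 on the opposite strand by 908 bases, so part of its reads could belong to ADRM1. TNC fell by 1.39 ± 0.20 in vector and 0.87 ± 0.18 in JUN cells (edgeR adjusted p = 9.30e-05 and 0.00290). COL1A1, the alpha 1 chain of type I collagen, was low throughout and fell by 1.11 ± 0.21, from 3.30 ± 0.0738 to 1.52 ± 0.265 CPM, in vector cells and by 1.24 ± 0.22 in JUN cells (adjusted p = 0.00116 and 0.000840).

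The tested genes whose log2 CPM followed MMP14 most closely over the 12 libraries were CCIN (Pearson r = 0.993), CALM3 (0.993), UGP2 (0.992), CXCL5 (0.992) and ZFAND3 (0.991). Of these, CCIN had no reads in vector cells and 0.648 ± 0.1252 CPM in JUN EtOH, whereas CALM3 went from 415 ± 10.9 to 778 ± 21.6 CPM. For TIMP1 they were SYN1 (1.00, the same reads), BIN1 (0.992), IFI30 (0.992), LY6E (0.986) and BRAT1 (0.984). IFI30 was at 48.8 ± 1.81 CPM in vector EtOH and 23.3 ± 0.631 in JUN EtOH. Since JUN and vector libraries lie apart in all these genes, such correlations mainly describe that shared step.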

How the data were processed

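RNA sequencing of MCF10A cells was analysed in 12 libraries, 3 biological replicates in each of 4 groups taken from the sample titles. The deposited values are raw read counts by Entrez gene, not normalized by the authors. According to the study's methods they isolated poly(A) RNA, trimmed single-end reads with Cutadapt, aligned them to hg19 with Bowtie2 and counted with countOverlaps, and tested with DESeq2. The submitters' processing notes name Cutadapt 4.2 and Bowtie2 2.3.5.1. Bowtie2 does not split reads at introns, so junction reads are largely lost. Annotation and use of strand are not given in the sources used here.

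Symbols were found for 99.4% of 23459 IDs in a RefSeq table. Total counts were 18594867 to 28993487. CPM were computed with TMM-scaled library sizes, and RPKM as CPM per kb of merged exons (GENCODE v44lift37), although the deposited counts appear to cover introns too. edgeR 4.0.16 (R 4.3.3) fitted 1 quasi-likelihood model to all libraries after filterByExpr (minimum count 10, minimum total 15; 14775 genes, biological coefficient of variation 12.5%). P-values were adjusted by Benjamini-Hochberg over all genes tested and called under 0.05. SE denotes the standard error, taken as the log2 change over the root of F. The fit was tested on simulated data. Limits of 3 counts cover counting error only, and 95% intervals of fold changes come from the fit and include the spread between libraries. Between libraries of the same group, chi-square per gene was 7.89 to 60.1, above counting noise.

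The genes and lists were chosen with earlier results of these data known. Named are all 10 genes, genes overlapping them, JUN, YAP1, at most 4 called genes per list and comparison with the largest changes and a group mean of at least 1 CPM, and the 5 genes most correlated with the most abundant changed MMP and TIMP. The marker genes of cell types, MMP24, the laminin genes and other genes given only by name with a count were named after their values were seen. Some genes covered by the rule are not reported here. Alternatives were DESeq2 1.42.0, RLE and upper-quartile scaling, no filter, a mean of at least 5 CPM, only the libraries compared, the replicate number as a block, a GC correction, both together, and each of the 12 libraries left out.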

Additional observations from a re-analysis of the deposited data

Results flagged for a closer look

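Of the MMP and TIMP genes and their named regulators and substrates, 2 differed between JUN and vector cells in the test of the interaction (edgeR). Both are genes that regulate MMPs and neither is an MMP or TIMP. Of the cell type markers named, CDH1 passed too, at -1.03 ± 0.17 on the log2 scale (edgeR adjusted p = 0.00541), and was not followed through the alternatives. The induction of THBS1 was smaller in JUN cells, with an interaction of -1.745 ± 0.21 on the log2 scale (adjusted p = 0.000401; 0.00287 or less under the alternatives tried). PLAT differed by 1.071 ± 0.16 (adjusted p = 0.00238; 0.0122 or less under the alternatives tried): it was at 21.9 ± 2.28 and 16.5 ± 1.40 CPM in vector EtOH and vector Dox, and at 55.4 ± 5.12 and 87.3 ± 7.49 CPM in JUN EtOH and JUN Dox.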

How the results depend on the processing

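The calls of MMP2, MMP14, TIMP1 and TIMP2 with JUN were kept under every alternative in which the gene was tested, with log2 changes in uninduced cells of 3.54 to 3.69, 2.23 to 2.43, -1.94 to -1.70 and 0.68 to 0.84. The calls on induction were less firm, and TIMP1 in vector cells was the only one kept throughout (adjusted p of 0.0345 or less). On induction in vector cells 1 of the tested genes was called with a mean of at least 5 CPM, where MMP2 was not tested, and 1 with only the vector libraries, and 1 to 3 with a library left out. In JUN cells 1 to 3 were called with a library left out. The number of all genes called with a library left out was 3326 to 4865 on induction in vector cells, 2082 to 3861 in JUN cells, 3823 to 6765 and 4025 to 5539 with JUN, and 97 to 242 for the interaction. JUN with induction gave 3439 genes with only its own libraries, and DESeq2 gave 340 genes for the interaction against 165 with edgeR. The cause of these shifts was not tested, except that fewer libraries entered the leave-one-out fits. The ratio of MMP14 to TIMP1 in vector EtOH was 0.0199 with the longest transcript as the length. Values near 0 changed sign: MMP14 on induction in vector cells (-0.0783 to 0.0938 over all alternatives) became 0.0938 with the GC correction, 0.0855 with the block and GC correction, and 0.0797 without vector Dox 3. TIMP3 on induction (-0.0295 to 0.0871 in vector and -0.0693 to 0.000751 in JUN cells with a library left out) became -0.0295 in vector cells without vector Dox 2, and 0.000751 and 9.55e-05 in JUN cells without JUN EtOH 2 and JUN Dox 3. With JUN in induced cells its range was -0.0273 to 0.0927, with -0.0172, -0.0273 and -0.0249 without vector Dox 1, JUN Dox 2 and vector Dox 3. Of the named genes of the other lists, no value changed sign, and 81 of 1163 recomputed values lost their call. The interaction was not fitted on a subset of the groups.

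Samples of different groups with the same replicate number had correlated deviations of -0.258 to 0.466, against -0.470 to 0.315 for different numbers. These ranges overlap, but the samples numbered 3 were all positively correlated with each other, from 0.0743 to 0.466. The numbers were not taken as a pairing in the main fit, and a pairing of some samples is not excluded. With the replicate number as a block, 2, 4, 3, 4 and 0 of the tested genes were called in the 5 comparisons, as without it, the calls on induction of MMP15 in JUN cells and DCUN1D5 in vector cells were lost (adjusted p = 0.0585 and 0.0576), and the count of all genes on induction in vector cells was 4588 against 4443. MMP1, MMP3, MMP10 and MMP13 are limited by depth, at 0.107 to 0.1505 CPM per library.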
